A study of Homo sapiens with 45 samples.

Results

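The response of HEY cells to miR-205 was taken from 6 of the 45 arrays in the series, 3 of cells given a precursor of miR-205 and 3 of cells given a negative-control precursor (miR-NC). The arrays were chosen by their titles, and all probe sets on them were used. HEY is a human ovarian cancer cell line. Both groups were transfected with 33 nM of precursor using a Lipofectamine lipid reagent, and RNA was taken after 48 h, amplified from the 3' end and labelled with biotin. By their labels the 2 groups differ only in the precursor. The other arrays hold the ovarian line SKOV3 and the prostate line PC3, precursors of miR-203a and miR-429, and untransfected cells, with 3 arrays in each of 15 groups. The series asks how cancer lines differ when miRNAs shift them from a mesenchymal towards an epithelial state. Whether the 3 arrays of a group came from separate cultures is not given in the labels, so the variation behind the p-values may be technical. For each gene it was pooled over all 15 groups, so a standard error (SE) can differ from the spread in the 2 groups compared. The gene CDC20 had SDs of 0.04 (miR-NC) and 0.07 (miR-205) but an SE of 0.45. For MAN1A1 the SDs were 0.12 and 1.09 and the SE 0.28. RNA came from whole cultures, so fewer cells expressing a gene and less RNA per cell cannot be told apart.

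A miRNA is a small RNA that guides a silencing complex to transcripts with a matching site, most often in their 3' UTR, and lowers their level or their translation. The match is set mainly by the seed, bases 2 to 8 of the mature strand. miR-205 is made in many epithelia and is known, with the miR-200 family, for lowering ZEB1 and ZEB2, repressors that keep epithelial genes such as the E-cadherin gene CDH1 off in epithelial-mesenchymal transition (EMT). The mature strands are shown with the seed in capitals, because the seed decides which transcripts each precursor could lower; miR-429, of the miR-200 family, and miR-203a were transfected into HEY cells in the same series. The sequences are from RefSeq (GRCh38.p14), written 5' to 3'.
hsa-miR-205-5p: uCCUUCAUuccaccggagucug
hsa-miR-205-3p: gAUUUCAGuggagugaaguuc
hsa-miR-429: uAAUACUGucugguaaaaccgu
hsa-miR-203a-3p: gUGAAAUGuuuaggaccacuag
The 5p strand of 22 bases lies at chr1:209432166-209432187 on the plus strand, in the miRNA gene MIR205, and the 3p strand of 21 bases at chr1:209432203-209432223. The labels do not name the arm. None of the 4 seeds is shared, and the letters complementary to the 5p seed are AUGAAGG.

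The 5' and middle control probe sets of GAPDH and ACTB, which read how far towards the 5' end the labelled RNA reached, differed between the 2 groups. At the 5' end of GAPDH the miR-NC arrays read 8.42, 8.06 and 8.62 log2 units and the miR-205 arrays 12.34, 12.57 and 11.94, a difference of 3.92 ± 0.36 (SE, adjusted p = 1.03e-11), while the 3' set differed by 1.48 ± 0.12. The 5' set of ACTB was higher by 1.22 ± 0.27 (adjusted p = 0.000155) and its 3' set differed by -0.03 ± 0.10 (adjusted p = 0.814). The 5' sets of both genes did not overlap between the groups. In SKOV3 the miR-205 and miR-NC arrays differed by 0.01 ± 0.36 at the 5' end of GAPDH (adjusted p = 0.991), whereas in PC3 they differed by 3.66 ± 0.36 (adjusted p = 2.06e-10). The hybridization controls, which are added to every array, had higher means with miR-205 for 18 of 18 probe sets, by 0.09 to 1.09. The part of these differences in the results was not tested. A second reference is therefore given beside the results, the 3 arrays labelled untransfected PC3. These arrays carry HEY genes against their label: of 55 genes specific to HEY, chosen without any miR-205 array, 98.2% were above the midpoint on each of them, and of 149 genes specific to PC3 0% were. Their 5' GAPDH set averaged 12.26 ± 0.34 (SD, n = 3), which differed from the miR-205 arrays by 0.03 ± 0.36 (adjusted p = 0.952), but they are not matched to the miR-205 arrays in other controls. The 5' ACTB set differed from theirs by -0.63 ± 0.27 (adjusted p = 0.0446), and the hybridization controls by -0.53 to 1.25, with 16 of 18 called higher and 1 lower on the miR-205 arrays. Their label also says that they were not transfected. Both comparisons use the same 3 miR-205 arrays, so a value against the second reference is not independent of that against miR-NC. On the miR-205 arrays themselves 94.5% to 100% of the HEY genes and 0% of the PC3 genes were above the midpoint, as their label says.

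**Figure D1:**
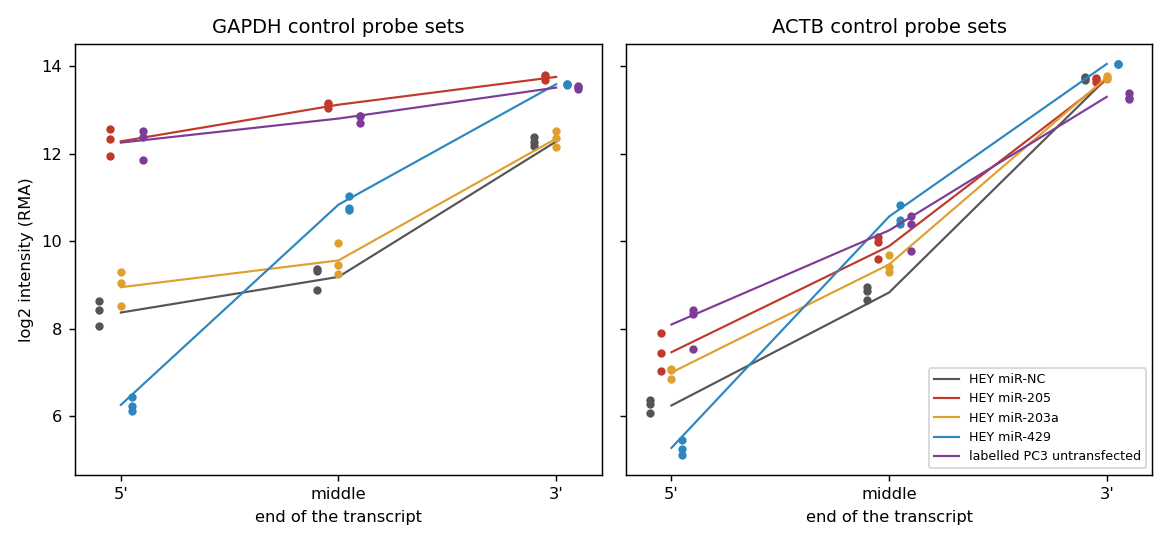
Log2 intensity of the GAPDH and ACTB control probe sets (vertical axis) from the 5' to the 3' end of the transcript (horizontal axis), with a point per array and a line through the means of each group of 3 arrays. At the 5' end of GAPDH the 3 miR-205 arrays lie between 11.94 and 12.57, beside the arrays labelled untransfected PC3 and above the 3 miR-NC arrays at 8.06 to 8.62.

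With miR-205, 5238 of 15599 genes were higher than with miR-NC (33.6%) and 5021 were lower (32.2%), at an adjusted p under 0.05 in limma's moderated test of all genes. In all, 10259 genes (65.8%) were called, and 71.6% of all genes had arrays that did not overlap between the groups, so the counts of list members that follow are to be read against these shares. At least 2-fold differences were found for 2531 higher genes (16.2%) and 2655 lower genes (17%). In SKOV3 the same contrast called 4001 genes (25.6%), 2627 higher (16.8%) and 1374 lower (8.81%), and in PC3 it called 7548 genes (48.4%). The PC3 miR-205 arrays carried 100% of the PC3 genes and 1.82% of the HEY genes above the midpoint. Against the arrays labelled untransfected PC3, the HEY miR-205 arrays had 6070 higher genes (38.9%) and 2807 lower genes (18%). Counts of list members against this second reference are to be read beside these shares, and list medians beside 0.23 over all genes. Values are given on the log2 scale of the deposited intensities, and 4.89, their median over all arrays and probe sets, serves as the level near background. Where a group mean lies below it, the size of a difference is only approximate. Over the 38413 probe sets tested one by one, 31% were higher and 32.4% lower (63.4% in all), which is the share to read counts of a gene's probe sets against. The responses of HEY and SKOV3 differed from each other for 59.8% of genes, and 56.9% of genes were called against the arrays labelled untransfected PC3.

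**Figure D2:**
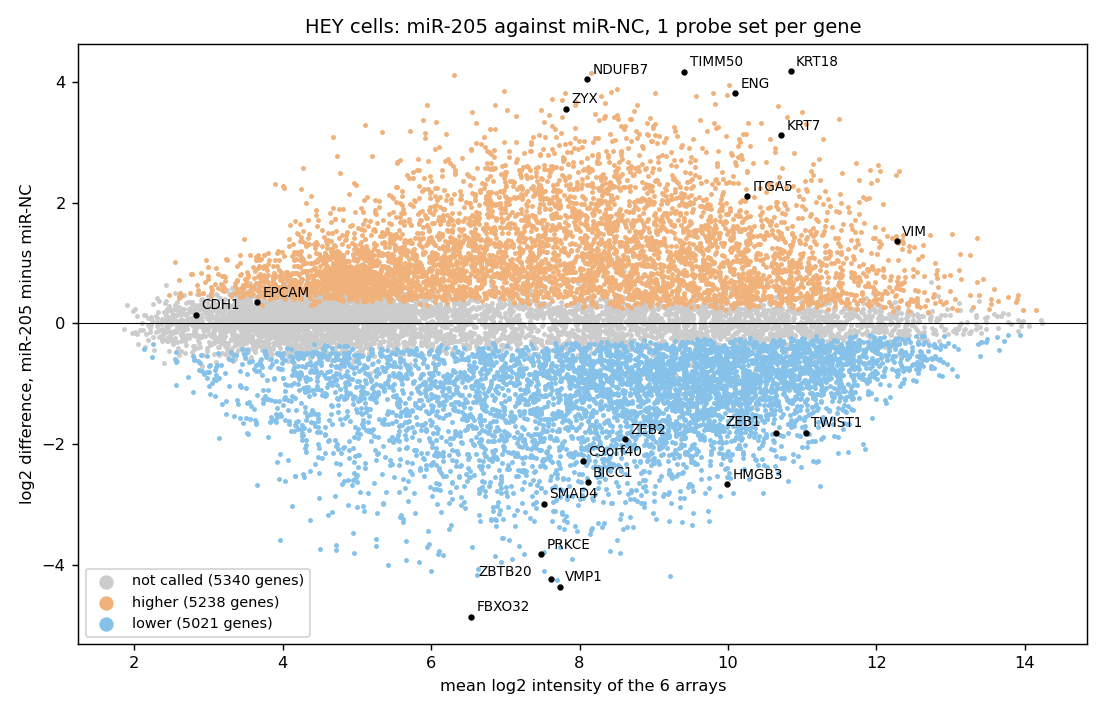
The log2 difference, miR-205 minus miR-NC (vertical axis), against the mean log2 intensity of the 6 arrays (horizontal axis), with a point for each of 15599 genes and the called genes in colour. ZEB1, ZEB2, TWIST1 and SMAD4 lie among the 5021 lower genes, KRT18 and TIMM50 among the 5238 higher genes, and CDH1 and EPCAM lie at low intensity among the genes that were not called.

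ZEB1 and ZEB2 were both lower with miR-205. ZEB1, the zinc finger repressor of CDH1, read 11.56, 11.54 and 11.55 on the miR-NC arrays and 9.70, 9.76 and 9.74 on the miR-205 arrays. All miR-205 arrays lay below all miR-NC arrays, and the difference was -1.81 ± 0.13 (SE, adjusted p = 1.55e-14), a 3.51-fold fall. Of its 4 tested probe sets 3 were lower, and the other differed by -0.33 ± 0.36. Its relative ZEB2 read 9.60, 9.49 and 9.62 with miR-NC and 7.74, 7.68 and 7.53 with miR-205. Again the groups did not overlap, with a difference of -1.92 ± 0.14 (adjusted p = 3.88e-14), and 3 of 3 probe sets were lower. Both differences were smaller against the arrays labelled untransfected PC3, -0.87 for ZEB1 (adjusted p = 8.01e-07) and -1.09 for ZEB2 (adjusted p = 6.28e-08). ZEB1 also fell in SKOV3, by 1.38, whereas ZEB2 there differed by -0.10, and the response of ZEB2 differed between the lines by -1.81 (adjusted p = 1.36e-09).

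Among the other transcription factors of EMT, TWIST1, a basic helix-loop-helix factor, read 11.90, 11.96 and 11.99 with miR-NC and 9.96, 10.23 and 10.24 with miR-205. The groups did not overlap (difference -1.81 ± 0.15, adjusted p = 2.84e-13), but the miR-205 arrays differed from those labelled untransfected PC3 by 0.02 (adjusted p = 0.91). The E-box factor TCF4 fell by 1.09 ± 0.17 on its brightest probe set, with 5 of 8 probe sets lower and 1 higher, and its value against the arrays labelled untransfected PC3 was 0.16. KLF4, a Krüppel-like factor of epithelia, fell by 0.88 ± 0.30 (adjusted p = 0.00983); without miR-205 replicate 1 the difference was -0.67, and it was not called. SNAI2, a zinc finger repressor like SNAI1, was not called (difference -0.44 ± 0.27, adjusted p = 0.154). SNAI1 had the single higher call of the list (difference 0.46 ± 0.20, adjusted p = 0.0497); both its means lay below the level near background, and the call was lost under 13 alternatives, among them leaving out miR-205 replicate 2 (0.45) or 3 (0.38) or miR-NC replicate 1 (0.26) or 2 (0.51). TWIST2, PRRX1, OVOL1, OVOL2, GRHL2 and ELF3 were not called, with differences from -0.22 to 0.33; GRHL2 (difference 0.32) was called higher without miR-205 replicate 3 (0.46) or miR-NC replicate 1 (0.41). In all 5 of 13 EMT factors were lower, a share near that of all genes (32.2%), and 1 higher. Of the list 46.2% were called, beside 65.8% of all genes, with a median of -0.22 beside 0.06 over all genes tested.

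CDH1 and EPCAM, epithelial genes kept off in EMT, read below the level near background in both groups. CDH1 read 2.87, 3.05 and 2.35 on the miR-NC arrays and 3.08, 2.38 and 3.25 on the miR-205 arrays. The groups overlapped, and the difference was 0.15 ± 0.47 (adjusted p = 0.797). EPCAM, an epithelial adhesion molecule, read 3.28, 3.36 and 3.80 with miR-NC and 3.95, 3.79 and 3.76 with miR-205, which overlapped as well (difference 0.35 ± 0.26, adjusted p = 0.225). In SKOV3 EPCAM rose by 2.19, and the response differed between the lines by -1.84 (adjusted p = 4.31e-05). ESRP1, the epithelial splicing regulator, fell by 1.52 ± 0.45 (adjusted p = 0.00316); against the arrays labelled untransfected PC3 it differed by -0.51 (adjusted p = 0.335), and with the HEY arrays alone in the fit it was not called.

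**Figure D3:**
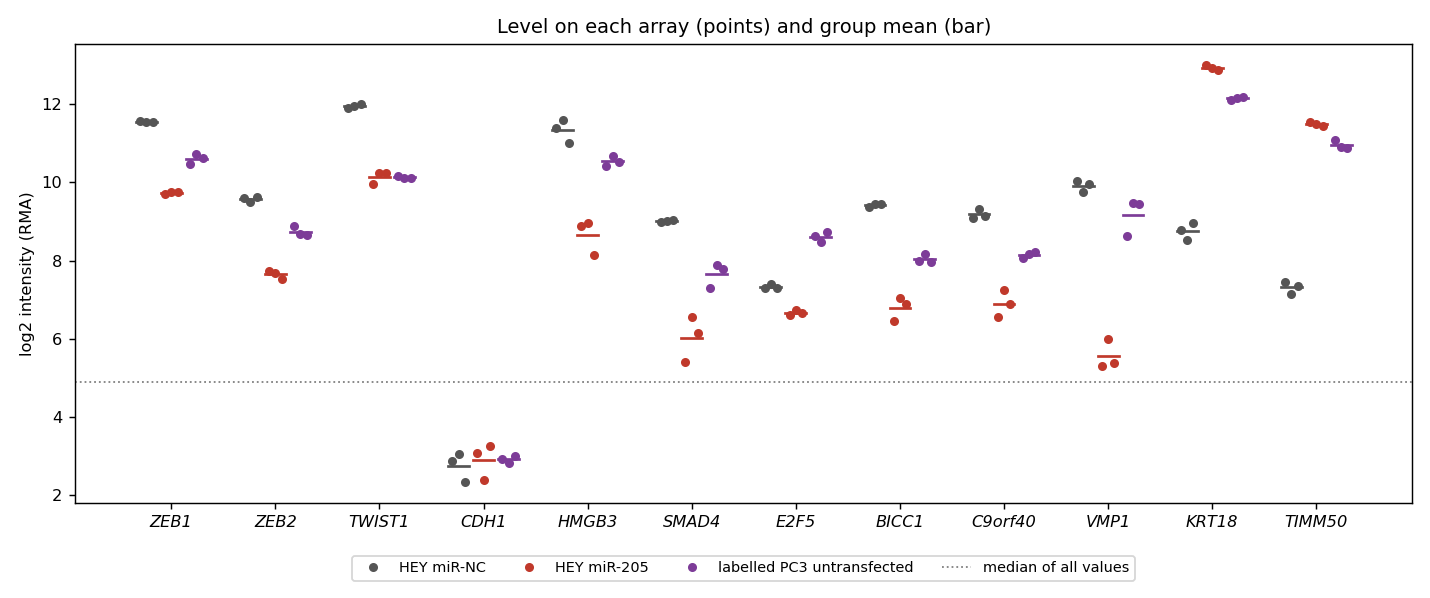
Log2 intensity (vertical axis) of 12 genes on each miR-NC, miR-205 and labelled untransfected PC3 array, with a bar at each group mean of 3 arrays and a dotted line at 4.89, the level near background. ZEB1 and ZEB2 are lowest on the miR-205 arrays, TWIST1 is alike on the miR-205 arrays and those labelled untransfected PC3, and CDH1 lies below the dotted line on every array.

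Junction and surface genes of epithelia were lower more often than higher against miR-NC. Of 22 tested members 10 were lower and 4 higher, with a median of -0.03. Against the second reference 3 were lower and 3 higher (median -0.17), where 18% of all genes were lower and 38.9% higher. Occludin (OCLN), a tight junction protein, read 10.73, 10.61 and 10.72 with miR-NC and 8.10, 8.68 and 8.40 with miR-205, and all 4 of its probe sets were lower (difference -2.29 ± 0.16, adjusted p = 1.15e-14). The desmosomal cadherin DSC2 fell by 1.67 ± 0.12 and the membrane protein MAL2 by 1.75 ± 0.19. With the arrays labelled untransfected PC3 as reference OCLN kept a difference of -0.87 (adjusted p = 2.47e-05), while DSC2 differed by -0.19 and MAL2 by -0.17, neither called. Plakophilin 3 (PKP3), a desmosomal plaque protein, went the other way, from 5.10 to 8.09 (difference 2.99 ± 0.19), on 1 of its 2 probe sets; it was higher by 1.79 against the second reference and by 1.42 in SKOV3. In SKOV3 8 of the 22 were higher and 0 lower.

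Keratins, the intermediate filament proteins of epithelial cells, were higher. Of 9 tested keratins 6 were higher and 0 lower, with a median of 0.86; the others of the list were not tested. KRT18 read 8.78, 8.51 and 8.97 with miR-NC and 13.00, 12.93 and 12.87 with miR-205, a difference of 4.18 ± 0.17 (adjusted p = 4.22e-21) with no overlap. Its partner KRT8 read 8.01, 7.67 and 8.32 and 11.13, 11.09 and 10.94, a difference of 3.06 ± 0.18 (adjusted p = 4.77e-17). KRT7 was higher on 4 of 4 probe sets, from 9.18, 9.11 and 9.16 with miR-NC to 12.36, 12.27 and 12.19 with miR-205 (difference 3.12 ± 0.19). The groups did not overlap for any of these 3 simple-epithelial keratins. Against the arrays labelled untransfected PC3 the differences were 0.79 for KRT18 (adjusted p = 0.000121), 1.30 for KRT7 (adjusted p = 3.09e-07) and 0.12 for KRT8 (adjusted p = 0.575), so KRT8 was not called there. KRT15, a basal keratin, was higher by 1.68 ± 0.22 from a miR-NC mean of 4.76, below the level near background. In SKOV3 3 of the 9 keratins were higher and 1 lower. There KRT18 and KRT8 differed by 0.40 and 0.44, neither called, and KRT7 was higher by 0.80. In PC3, where 5' GAPDH also differed, KRT18, KRT8 and KRT7 were higher by 2.68, 2.99 and 2.80.

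Mesenchymal genes did not fall together. Of 23 tested members 8 were higher, a share near that of all genes (33.6%), and 4 lower, with a median of 0.23. Against the second reference 11 were higher and 1 lower (median 0.45). The vimentin gene VIM, an intermediate filament of mesenchymal cells, read 11.57, 11.47 and 11.74 with miR-NC and 12.81, 13.01 and 13.05 with miR-205 on its brightest probe set, a difference of 1.36 ± 0.14 (adjusted p = 5.63e-11). Its other probe set went the opposite way, from a mean of 8.22 to 5.56 (difference -2.66 ± 0.36), and the mean of both probe sets gave -0.65. N-cadherin (CDH2) was not called, at -0.12 ± 0.24 (adjusted p = 0.672), and neither was fibronectin (FN1), at 0.42 ± 0.23 (adjusted p = 0.117). TAGLN, an actin-binding protein of smooth muscle and fibroblasts, was higher by 2.70 ± 0.24 on 3 of 3 probe sets, from a mean below background, and the collagen-crosslinking enzyme LOXL2 by 1.57 ± 0.12. The collagen VI chains moved apart, COL6A2 higher by 1.69 ± 0.34 and COL6A3 lower by 2.60 ± 0.19, to a mean below background. Against the second reference LOXL2 and TAGLN kept differences of 1.04 and 0.99, both called, whereas VIM differed by 0.15 (adjusted p = 0.368).

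Published targets of miR-205 were lower more often than higher. Of 25 tested members 17 were lower and 5 higher, with a median of -0.84 beside 0.06 over all genes, where 32.2% of genes were lower. In SKOV3 10 of the 25 were lower, where 8.81% of all genes were, and against the arrays labelled untransfected PC3 11 were lower, where 18% were. The targets ZEB1 and ZEB2 are in this list too. The chromatin protein HMGB3 read 11.38, 11.58 and 11.01 with miR-NC and 8.88, 8.96 and 8.14 with miR-205. The groups did not overlap (difference -2.66 ± 0.19, adjusted p = 9.73e-15, a 6.34-fold fall), both of its probe sets were lower, and it fell by 1.88 against the second reference and by 0.97 in SKOV3. TP53INP1, a stress protein of the p53 and autophagy pathways, read 10.59, 10.58 and 10.49 and then 8.38, 8.37 and 8.78. It fell by 2.05 ± 0.14 in HEY, by 1.82 in SKOV3 and by 1.03 against the second reference. Of its 2 probe sets 1 was lower in HEY, and the other was not called.

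SMAD4, the common mediator of TGF-beta and BMP signals, read 8.99, 9.01 and 9.04 with miR-NC and 5.41, 6.55 and 6.14 with miR-205. The miR-205 arrays spread over more than a log2 unit but stayed below every miR-NC array (difference -2.98 ± 0.19, adjusted p = 9.01e-16), and 4 of 4 probe sets were lower. It was lower against the second reference as well, by 1.62, but in SKOV3 it differed by 0.51, and the response differed between the lines by -3.50 (adjusted p = 4.26e-13). The cell cycle regulator E2F5 had a small fall in HEY, from 7.30, 7.40 and 7.30 to 6.61, 6.74 and 6.66 (difference -0.66 ± 0.14). Here the second reference gave the larger value, -1.94, and SKOV3 gave -0.74. PRKCE, protein kinase C epsilon, had the largest difference of the list, from 9.43, 9.43 and 9.30 to 5.90, 5.46 and 5.35 (-3.82 ± 0.15, adjusted p = 3.66e-21). Another of its probe sets was higher by 0.89 ± 0.24, and against the second reference the difference was -0.89. Squalene epoxidase (SQLE), an enzyme of cholesterol synthesis, fell by 2.80 ± 0.12 against miR-NC, by 0.59 against the second reference and by 0.99 in SKOV3.

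Most of the remaining lower targets were not called against the second reference. The cyclin gene CCNJ fell by 1.59 ± 0.22, the angiogenic factor VEGFA by 1.18 ± 0.19, the phosphatase PHLPP2 by 1.03 ± 0.13 and the kinase CDK6 by 1.01 ± 0.17. Against the arrays labelled untransfected PC3 these 4 differed by 0.14, 0.16, -0.17 and 0.12, none of them called. For VEGFA the mean of its probe sets was -0.27 and was not called. Of the 7 CDK6 probe sets 5 were lower and 1 higher. The anti-apoptotic genes BCL2L2 and BCL2 fell by 0.84 ± 0.20 and 0.80 ± 0.26; another BCL2 probe set was higher by 1.45 ± 0.17, and the mean of the BCL2 probe sets gave 0.11. The laminin chain LAMC1 fell by 1.13 ± 0.13 on its brightest probe set and was higher by 1.63 ± 0.13 on the other, with a mean of 0.25. The SRC-family kinase YES1 fell by 0.37 ± 0.11 but was higher by 0.62 against the second reference. MED1, a Mediator subunit, fell by 0.61 ± 0.24, with 2 of its 4 probe sets lower and 1 higher. Its arrays overlapped, and the call was lost without miR-205 replicate 3 (-0.29) or miR-NC replicate 3 (-0.53).

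Of the targets that were higher, the fibronectin receptor chain ITGA5 changed most, from 9.20, 9.03 and 9.37 with miR-NC to 11.47, 11.21 and 11.23 with miR-205. The groups did not overlap (difference 2.11 ± 0.17, adjusted p = 1.36e-13), and it was also higher against the second reference, by 1.68 (adjusted p = 1.61e-10). INPPL1, the lipid phosphatase SHIP2, was higher by 0.98 ± 0.19 in HEY and lower by 0.90 in SKOV3, and the response differed by 1.89 between the lines (adjusted p = 1.24e-07). The receptor kinase ERBB2 was higher by 0.94 ± 0.16, but by 0.12 and not called as the mean of its probe sets. The kinase SRC was higher by 0.92 ± 0.25 against miR-NC, whose mean was below background, and lower by 0.60 against the second reference (adjusted p = 0.0362). The receptor LRP1 was higher by 0.44 ± 0.17, a call lost without miR-205 replicate 1 (0.38), miR-NC replicate 1 (0.40) or miR-NC replicate 2 (0.43). The growth factor receptor ERBB3, the cell cycle factor E2F1 and the RNA helicase DDX5 were not called, with differences from -0.38 to -0.06; E2F1 was lower in SKOV3, by 1.79.

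**Figure D4:**
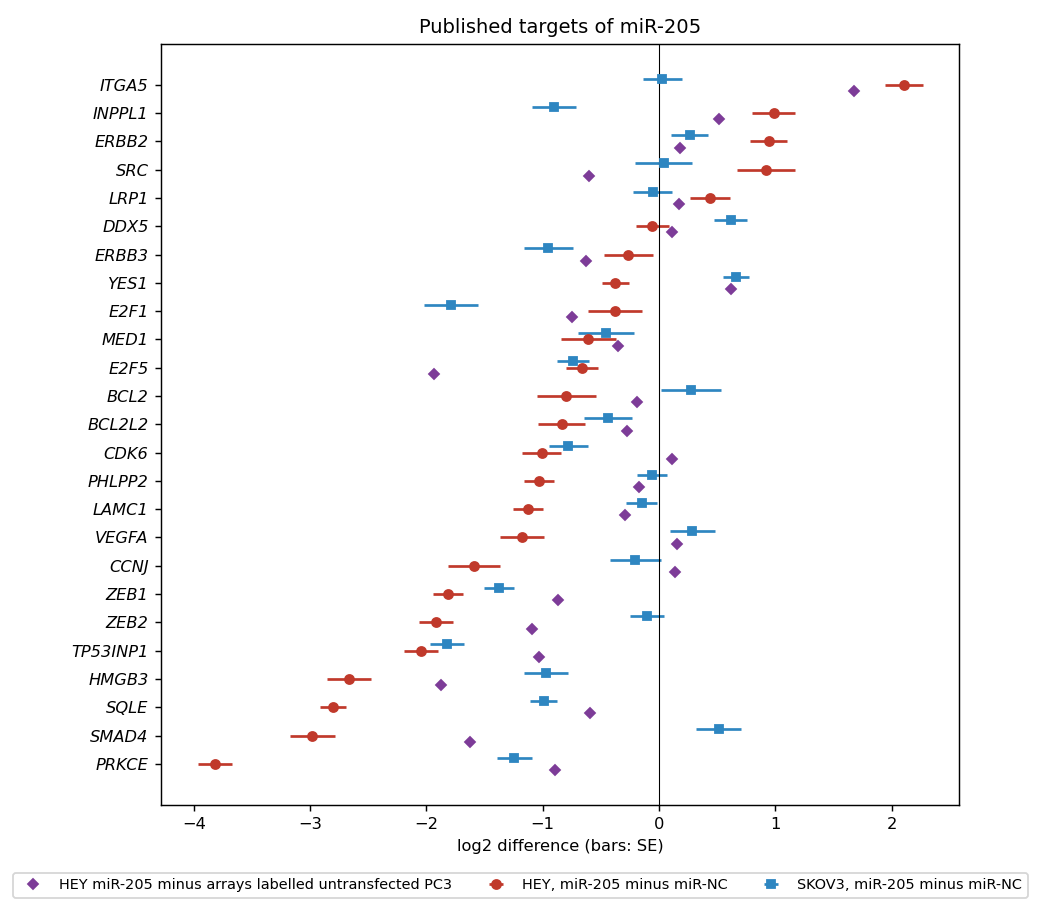
The log2 difference (horizontal axis) of each of 25 published miR-205 targets (vertical axis) for HEY and SKOV3, miR-205 minus miR-NC, with bars of 1 SE, and for HEY miR-205 minus the arrays labelled untransfected PC3, without bars. HMGB3, TP53INP1, ZEB1 and E2F5 lie left of 0 for all 3, while SMAD4 lies left of 0 for both HEY references and right of 0 in SKOV3.

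Many of the strongest falls were in genes outside the target list. Among genes whose probe sets (2 or more) were all lower and whose means stayed above background, the 8 lowest were ZBTB20, ZNF738, MAN1A1, OTUD1, DCAF17, ARHGAP5, GPATCH2 and SELENOT, with differences from -4.23 to -3.40. The zinc finger repressor ZBTB20 read 9.86, 9.76 and 9.59 with miR-NC and 4.62, 6.09 and 5.78 with miR-205 (difference -4.23 ± 0.24, adjusted p = 4.62e-17), and 10 of 10 probe sets were lower. OTUD1, a deubiquitinase, read 9.90, 9.94 and 9.71 and then 5.72, 6.33 and 5.82 (difference -3.90 ± 0.18, adjusted p = 1.84e-19). Neither gene had overlapping groups. Against the arrays labelled untransfected PC3, a comparison with the same miR-205 arrays on which the 8 were chosen, they were lower by 2.92 for ZBTB20, 2.76 for OTUD1, 2.30 for GPATCH2, 2.25 for ARHGAP5, 1.82 for the mannosidase MAN1A1, 1.72 for the selenoprotein SELENOT, 1.48 for DCAF17 and 0.72 for the zinc finger gene ZNF738. In SKOV3 the values of these 8 lay between -0.87 (ZBTB20) and 0.78 (GPATCH2), and in PC3 between -1.82 (ZNF738) and 0.38 (SELENOT).

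Some falls were found in both ovarian lines, which share no array. Of the 5021 lower genes in HEY 594 were also lower in SKOV3, which is 11.8% of the HEY genes and 43.2% of the 1374 SKOV3 genes, and another 368 of the SKOV3 genes (26.8%) were higher in HEY; of all genes 32.2% were lower in HEY. The higher genes were not shared in this way, since of 2627 genes higher in SKOV3 678 (25.8%) were higher in HEY, where 33.6% of all genes were, and 1249 (47.5%) were lower. For 306 genes lower in both lines every tested probe set was lower in HEY. Of these, the 6 with the lowest mean of both differences were VMP1, C9orf40, TMEM170B, BICC1, ZBTB20 and ETFBKMT. VMP1 and TMEM170B had only 1 tested probe set each, so no other probe set could go against it. BICC1, an RNA-binding protein, read 9.38, 9.43 and 9.45 with miR-NC and 6.46, 7.03 and 6.89 with miR-205, without overlap. It fell by 2.62 ± 0.21 in HEY and by 2.51 in SKOV3, and by 1.24 against the second reference. C9orf40, a gene of little-known function, read 9.09, 9.31 and 9.15 and 6.55, 7.24 and 6.90, a difference of -2.29 ± 0.15 in HEY and -3.16 in SKOV3, and of -1.25 against the second reference. VMP1, a membrane protein needed to form autophagosomes, had the larger fall in HEY, from 10.04, 9.75 and 9.96 to 5.30, 6.00 and 5.37 (-4.36 ± 0.29, adjusted p = 2.69e-15), with -3.62 against the second reference and -1.25 in SKOV3. TMEM170B fell by 3.70 ± 0.26 to a mean of 4.71, below background, so that size is only a bound, and the methyltransferase ETFBKMT fell by 3.02 ± 0.15.

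The other precursors transfected into HEY have other seeds, and 63.4% of genes were called between miR-205 and miR-203a and 63.4% between miR-205 and miR-429; their 5' GAPDH sets averaged 8.95 and 6.25. ZEB1 and ZEB2 differed from miR-203a by -1.67 and -2.28, but lay above the miR-429 arrays, by 0.41 (adjusted p = 0.00747) and 0.60 (adjusted p = 0.000458). With miR-429, whose family is known to target both genes, they were thus lower still. HMGB3 differed by -2.47 from miR-203a and -1.79 from miR-429, SMAD4 by -2.99 and -2.74, and BICC1 by -2.32 and -1.13. C9orf40 differed by -1.90 and -1.77, VMP1 by -4.20 and -2.06, ZBTB20 by -4.64 and -3.21, and E2F5 by -0.55 and -0.99. These 7 genes were all lower with miR-205 than with either precursor. BICC1, C9orf40, VMP1 and ZBTB20 had been chosen for their falls on the same miR-205 arrays, so for them this is no separate test. Not every lower target was below both, since ZEB1, ZEB2 and VEGFA were not. VEGFA lay above the miR-429 arrays by 0.61 (adjusted p = 0.00594). ITGA5 was higher with miR-205 than with miR-203a by 2.29 and than with miR-429 by 1.44, and KRT18 by 3.76 and 0.73.

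Genes of autophagy and FOXO signalling, which includes VMP1, were mostly lower. Of 23 tested 15 were lower and 4 higher, with a median of -0.75. Against the arrays labelled untransfected PC3 8 were lower and 6 higher (median -0.05). Of all genes 18% were lower and 38.9% higher against that reference (median 0.23). FBXO32, the ubiquitin ligase atrogin-1 and a FOXO target, had the lowest difference of the 15599 genes, going from 8.98, 8.96 and 8.95 with miR-NC to 3.96, 3.76 and 4.61 with miR-205. Its miR-205 mean of 4.11 is below background, so the difference of -4.85 is only a bound; it fell by 1.28 against the second reference (adjusted p = 6.84e-07). The transcriptional coregulator CITED2 fell by 2.90 ± 0.20, and by 1.62 against the second reference, while in SKOV3 it was higher by 1.38. KLF6 fell by 1.64 ± 0.22 on its brightest probe set, but 2 of its 5 probe sets were higher and 2 lower, and their mean gave 0.085.

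By the same rule the 8 highest genes were TIMM50, NDUFB7, PHPT1, PQBP1, TRAPPC2L, ENG, FXYD5 and NDUFB10, with differences from 3.76 to 4.17. The mitochondrial import subunit TIMM50 read 7.46, 7.15 and 7.36 with miR-NC and 11.55, 11.50 and 11.44 with miR-205 (difference 4.17 ± 0.20, adjusted p = 8.43e-19), an 18-fold rise without overlap. NDUFB7, a subunit of respiratory complex I, read 5.97, 6.03 and 6.24 and 10.28, 10.30 and 9.80 (difference 4.05 ± 0.25). Endoglin (ENG), a TGF-beta co-receptor, read 8.01, 8.21 and 8.35 and 12.22, 11.85 and 11.93 (difference 3.81 ± 0.18). The 8 genes differed less against the arrays labelled untransfected PC3, from 0.19 (NDUFB10, adjusted p = 0.331) to 0.73 (ENG, adjusted p = 0.00098), and in SKOV3 they lay between -0.23 (FXYD5) and 0.26 (PQBP1). In PC3, where 5' GAPDH also differed, all 8 were higher with miR-205 than with miR-NC, by 0.52 (ENG) to 2.98 (PHPT1).

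Most measured genes of the ribosome and of mitochondria were higher. Of 27 cytosolic ribosomal protein genes 20 were higher and 0 lower (median 1.15), of 34 mitochondrial ribosomal protein genes 30 were higher and 1 lower (median 1.39), and of 29 respiratory chain genes 26 were higher and 0 lower (median 1.42), where 33.6% of all genes were higher. In PC3 the medians of these 3 lists were 1.40, 0.90 and 0.82. Of 21 mitochondrial import genes 12 were higher and 4 lower (median 0.69). RPL18, a protein of the large cytosolic subunit, read 9.17, 9.10 and 9.46 with miR-NC and 12.90, 12.85 and 12.47 with miR-205 (difference 3.50 ± 0.21, adjusted p = 8.5e-17). RPS9, RPL29 and RPS3 were higher by 3.42, 3.29 and 2.52. Against the arrays labelled untransfected PC3 the cytosolic ribosomal list had 4 higher and 1 lower members and a median of -0.02, with RPL18 at -0.32 (adjusted p = 0.185).

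The mitochondrial lists remained partly higher against the second reference. The mitochondrial ribosomal list had 24 higher and 1 lower members there (median 0.60, beside 0.23 over all genes), the respiratory chain list 19 higher and 0 lower (median 0.50) and the import list 13 higher and 2 lower (median 0.52). MRPS7, of the small mitochondrial subunit, read 8.12, 8.02 and 8.34 with miR-NC and 11.57, 11.49 and 11.37 with miR-205 (difference 3.32 ± 0.13, and 1.12 against the second reference). MRPL37, MRPL12 and MRPS11 were higher by 3.62, 3.24 and 2.79. The import chaperone TIMM10 was higher by 3.32 ± 0.12 and by 1.03 against the second reference, while TIMM8B was higher by 2.02 against miR-NC and differed by 0.04 (not called) against that reference. UQCRC1, a core subunit of complex III, was higher by 3.15 ± 0.18 and by 1.53, and NDUFV1 of complex I by 3.24 ± 0.19 and by 0.57. The peptidase subunit PMPCA was higher by 2.42 against miR-NC and differed by -0.37 against the second reference.

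Proteasome, glycolysis and splicing genes were higher too. Of 26 proteasome subunit genes 22 were higher and 2 lower (median 0.87), and 18 were higher and 0 lower against the second reference. PSMD8, of the regulatory particle, read 7.95, 7.90 and 8.28 with miR-NC and 12.04, 11.96 and 11.98 with miR-205 (difference 3.95 ± 0.16, 1.03 against the second reference). Its ATPase PSMC3 was higher by 4.15 ± 0.26, and the core subunits PSMB3 and PSMB6 by 3.10 and 2.95. Of 18 glycolysis genes 14 were higher and 1 lower (median 0.79), and 16 were higher and 1 lower against the second reference. Glucose-6-phosphate isomerase (GPI) was higher by 2.33 ± 0.15, pyruvate kinase (PKM) by 2.38 ± 0.19 and aldolase (ALDOA) by 2.08 ± 0.16. Enolase (ENO1) was higher by 2.06 ± 0.16, but at -0.24 with the probe sets that may cross-hybridise left out. Of 25 splicing factor genes 14 were higher and 5 lower (median 0.37), led by PRPF8 (2.28 ± 0.15), PRPF19 (1.82 ± 0.15), U2AF1 (1.78 ± 0.20) and SNRPD1 (1.64 ± 0.14, and -1.06 without those probe sets), and 10 of the 25 had probe sets called in opposite directions.

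**Figure D5:**
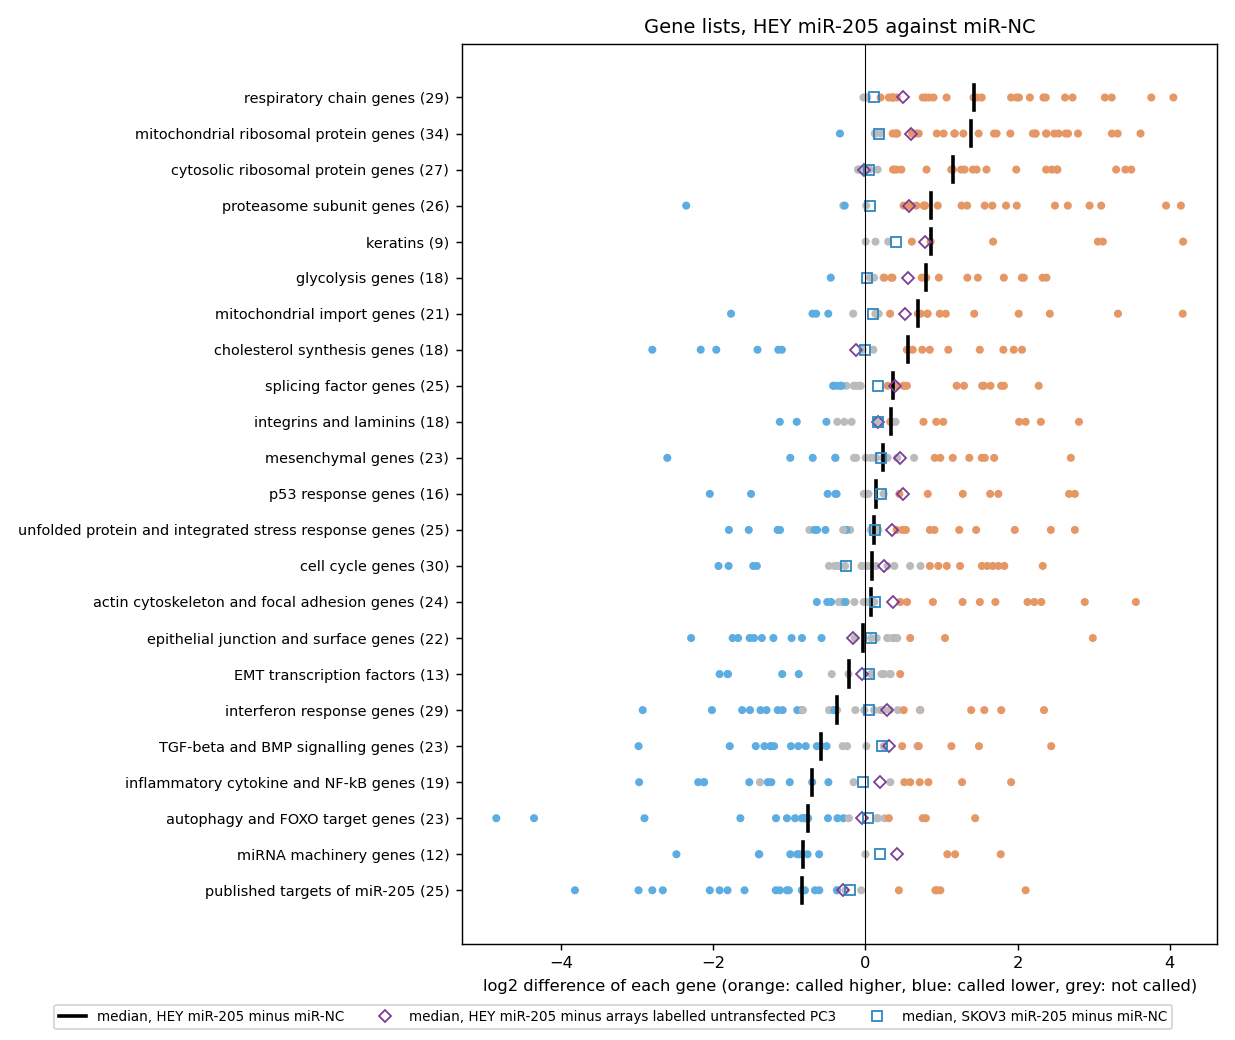
The log2 difference, miR-205 minus miR-NC in HEY (horizontal axis), of every tested member of 23 gene lists (vertical axis, number tested in brackets), with the list's median as a black bar, its median against the arrays labelled untransfected PC3 as a diamond and its median in SKOV3 as a square. The respiratory chain list has its bar at 1.42 and its diamond at 0.50, the cytosolic ribosomal list at 1.15 and -0.02, and the published targets at -0.84 and -0.30.

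The actin cytoskeleton and the matrix receptors changed in part. Of 24 actin and focal adhesion genes 11 were higher and 6 lower (median 0.07), and 13 were higher and 1 lower against the second reference. Zyxin (ZYX), a focal adhesion protein, read 6.11, 6.07 and 5.93 with miR-NC and 9.82, 9.57 and 9.38 with miR-205 (difference 3.56 ± 0.23, adjusted p = 1.07e-15; 0.70 against the second reference). The myosin light chain MYL9, the actin-binding profilin PFN1 and the tropomyosin TPM2 were higher by 2.88, 2.31 and 2.22, but differed by -0.33, -0.27 and 0.04 against the second reference, none called; the miR-NC mean of MYL9 was below background, and TPM2 (0.47) was not called without the probe sets that may cross-hybridise. Of 18 integrin and laminin genes 8 were higher and 3 lower (median 0.34). Besides ITGA5, the integrin chain ITGA3 was higher by 2.02 ± 0.22 and by 1.03 against the second reference (adjusted p = 0.000136). The laminin chains LAMB2 and LAMB3 were higher by 2.81 ± 0.23 and 2.31 ± 0.24, with 0.76 (called) and 0.26 (not called) against that reference.

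TGF-beta signalling and the miRNA machinery were lists with more lower than higher members against miR-NC and the reverse against the second reference. Against that reference all genes leaned higher too, with 38.9% higher, 18% lower and a median of 0.23. Of 23 TGF-beta and BMP genes 13, SMAD4 among them, were lower and 5 higher (median -0.58), but 2 were lower and 10 higher against the arrays labelled untransfected PC3 (median 0.31), and 10 of the 23 had probe sets called in opposite directions. The co-receptor TGFBR3 fell by 1.78 ± 0.14 on its brightest probe set and by 0.55 against the second reference, but 1 of its 2 probe sets was higher. ID1, a target of BMP signals, was higher by 2.44 ± 0.21 and by 0.99. The ligand TGFB1 was higher by 1.49 ± 0.31 from a mean below background, but at -0.68 without the probe sets that may cross-hybridise. Of 12 miRNA machinery genes 8 were lower and 3 higher (median -0.82), against 3 lower and 8 higher with the second reference (median 0.42). TNRC6C, a scaffold of the silencing complex, fell by 2.48 ± 0.21, to a mean below background, with 2 of its 5 probe sets lower and 1 higher. TNRC6B and the Argonaute gene AGO4 fell by 1.40 and 1.40. These 3 genes were also lower against the second reference, by 1.52, 0.82 and 0.71. TARBP2, a partner of Dicer, was higher by 1.78 ± 0.14, but at -0.042 without the probe sets that may cross-hybridise.

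Cytokine genes were lower more often than higher. Of 19 inflammatory and NF-kB genes 10 were lower and 6 higher (median -0.70), and against the second reference 5 were lower and 6 higher. The chemokine gene CCL20 read 8.80, 8.88 and 8.47 with miR-NC and 5.06, 6.18 and 5.98 with miR-205 (difference -2.98 ± 0.27, adjusted p = 3.65e-12). Interleukin 6 (IL6) read 7.87, 7.77 and 7.84 and 5.56, 5.71 and 5.61 (difference -2.20 ± 0.15, adjusted p = 3.46e-15). The groups did not overlap for either gene, and both were lower against the second reference, by 1.17 and 0.39. PTGS2, the prostaglandin synthase COX-2, fell by 2.12 ± 0.16 to a mean below background, and by 2.04 against the second reference. The chemokine gene CXCL2 fell by 2.12 ± 0.47, but at -0.61 was not called without the probe sets that may cross-hybridise. Of 29 interferon response genes 11 were lower and 6 higher (median -0.37), against 2 lower and 7 higher with the second reference (median 0.28). Of all genes 32.2% were lower and 33.6% higher against miR-NC, and 18% lower and 38.9% higher against the second reference (median 0.23). The helicase DDX60 and IFIT2, an antiviral protein, fell by 2.93 ± 0.28 and 2.02 ± 0.18, but differed by -0.63 and -0.22 against the second reference, neither called. The interferon factor IRF7 and IFI35 were higher by 1.78 ± 0.27 and 2.35 ± 0.23, and by 1.31 and 0.63 there.

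Stress, p53 and cell cycle genes split in both directions. Of 16 p53 response genes 7 were higher and 5 lower (median 0.14). TP53I3, an oxidoreductase, was higher by 2.68 ± 0.13, and the cell cycle inhibitor CDKN1A by 1.75 ± 0.14, with 1.76 and 0.68 against the second reference. In SKOV3 CDKN1A differed by -0.67, and the response differed between the lines (adjusted p = 8.47e-13). The stress protein SESN2 was higher by 2.75 ± 0.32 and by 1.35. Of 30 cell cycle genes 10 were higher, a share near that of all genes (33.6%), and 4 lower (median 0.09, beside 0.06 over all genes). Among the higher ones were the licensing helicase subunit MCM7 (by 2.33 ± 0.32) and the mitotic activator CDC20 (by 1.82 ± 0.45), neither called against the second reference. The inhibitor CDKN1B fell by 1.80 ± 0.12, and by 0.52 against the second reference, and the cyclin CCNE2 fell by 1.93 ± 0.58, a call lost with the HEY arrays alone in the fit. Of 25 unfolded protein and integrated stress response genes 10 were higher and 8 lower (median 0.11). The endoplasmic reticulum proteins CRELD2 and SDF2L1 were higher by 2.44 ± 0.12 and 1.96 ± 0.15, and by 1.36 and 1.32 against the second reference, whereas the co-chaperone DNAJB9 fell by 1.79 ± 0.25 and by 0.87.

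Cholesterol synthesis genes also split. Of 18 tested 10 were higher and 6 lower (median 0.56), against 4 higher and 6 lower with the second reference (median -0.12). Besides SQLE, the sterol sensor INSIG1 fell by 1.96 ± 0.10 on its brightest probe set, with another called higher, and by 1.42 against the second reference (adjusted p = 2.2e-13). The sterol carrier STARD4 fell by 2.17 ± 0.15, but differed there by -0.27 (adjusted p = 0.114). The farnesyl diphosphate synthase FDPS was higher by 2.06 ± 0.11 against miR-NC and differed by -0.03 against the second reference.

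Lineage genes of the ovary and Müllerian duct were measured as a check of the line. PAX8, a transcription factor of the Müllerian tract, was higher on 8 of 8 probe sets, from 10.45, 10.33 and 10.49 to 11.63, 11.56 and 11.58 (difference 1.17 ± 0.14, adjusted p = 5.94e-09; 0.65 against the second reference). WT1, a mesothelial and ovarian factor, was lower, from 10.34, 10.30 and 10.30 to 9.28, 9.29 and 9.26 (difference -1.04 ± 0.13; -0.70). MECOM fell by 1.47 ± 0.12, and the surface protein mesothelin (MSLN) was higher by 2.32 ± 0.24 from a mean below background. In all 2 of 7 such markers were higher and 4 lower. Markers of other cells were mostly dim or untested. Of 6 prostate markers KLK3 was higher by 1.02 ± 0.21, from a mean below background, and STEAP2 lower by 2.20 ± 0.16. Of 3 blood markers LYZ fell by 1.41 ± 0.31, with both means below background, and the other 6 of that list were not tested. Of 9 fibroblast and endothelial markers 1 was higher and 4 lower, among them CDH5 (-1.65 ± 0.17), PECAM1 (-1.63 ± 0.19) and KDR (-1.03 ± 0.23), with PECAM1 ending below background; PDGFRA was higher by 0.81 ± 0.21 at low intensity, and at -0.087 with the stricter filter on dim probe sets.

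Differences against miR-NC went with the genomic span of a gene. The 15575 genes with a RefSeq span were put into 4 classes of equal size by span, and the shortest class (up to 10.1 kb) had a median difference of 0.33, with 44.6% of genes higher and 17.1% lower. The following classes had medians of 0.22 and -0.04, and the longest class (from 69.8 kb) had -0.40, with 18.8% higher and 50.7% lower. In SKOV3 the medians of the same classes, from short to long, were -0.02, 0.02, 0.06 and 0.07, in PC3 they were 0.19, 0.16, 0.02 and -0.14, and against the arrays labelled untransfected PC3 they were 0.29, 0.29, 0.24 and 0.08. The lists with short genes included the cytosolic ribosomal proteins (median span 4.44 kb), the respiratory chain (6.2 kb) and the keratins (5.15 kb), and those with long genes the miRNA machinery (97 kb) and TGF-beta signalling (50.5 kb). The cytokine list, with a median span of 6.08 kb, had more lower than higher members. The integrin and laminin list, also of long genes (79.2 kb), had 8 higher and 3 lower members and a median of 0.34. The part of span in any list's difference was not tested.

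Probe sets of the same gene often went opposite ways. Of 8177 genes with 2 or more tested probe sets, 1740 (21.3%) had a probe set called higher and another called lower, whereas 1095 (13.4%) had all of them higher and 1012 (12.4%) all lower. In SKOV3 167 genes (2.04%) and in PC3 876 genes (10.7%) had such opposite calls, and against the arrays labelled untransfected PC3 1679 (20.5%) did. VIM, LAMC1, BCL2, PRKCE, TCF4 and KLF6 are examples, while ZBTB20, PAX8, SMAD4, KRT7, OCLN and ZEB2 had all their probe sets called in 1 direction.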

How the data were processed

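Gene expression was measured on Affymetrix U133 Plus 2.0 arrays. The deposited values are log2 intensities that the authors made with RMA, per the submitters' processing notes, which give no version; RMA corrects background, normalizes arrays and summarises probes. Array medians lay between 4.91 and 4.98 for the 6 arrays, and replicate arrays correlated at 0.988 to 0.993. Probe sets were left out if they carried no single gene symbol or if no group mean rose above 4.89, the median over all arrays and probe sets, and the brightest probe set stood for each of 15599 genes. All 45 arrays entered a fit of 15 group means by lmFit and eBayes of limma 3.58.1 (R 4.3.3) with 30 residual degrees of freedom, and two-sided tests were adjusted by Benjamini-Hochberg at 0.05. A second fit took all 38413 probe sets that passed. On simulated data for this comparison (15599 genes) 83% of 100 changes of 1 log2 unit and 28% of 100 changes of 0.5 were recovered, and 5 of 15399 unchanged genes were called. The simulation changed far fewer genes than the 65.8% called in the data. It also held no shift like that of the 5' control probe sets, so its rates do not describe the real comparison.

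The gene lists, the named genes and the second reference were chosen with earlier results of these data known. Named are the EMT factors and 6 core EMT genes, the published targets, the 8 highest and 8 lowest genes with all of 2 or more probe sets called alike, both means above background and no overlap, the 6 lowest in HEY and SKOV3 together, up to 4 called members of each other list, and the control probe sets. Genes specific to a line stood at least 3 log2 units above the other lines in transfected arrays without miR-205. Genomic spans and miRNA sequences are from RefSeq (GRCh38.p14). The labels do not say whether replicate numbers pair the arrays. Deviations of same-numbered miR-205 and miR-NC arrays correlated at -0.08 to 0.04, so no shared replicate effect was seen. Alternatives were other sets of arrays in the fit, the replicate block, normalization, filters, the probe set per gene, the prior, a 2-fold minimum and each array left out. Python 3.11.15 drew the figures. Some control and gene-level results are not reported here.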

Additional observations from a re-analysis of the deposited data

Results flagged for a closer look

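For 26 of the EMT and target genes the response to miR-205 differed between HEY and SKOV3 by a test of that difference in the fit (adjusted p under 0.05, adjusted over all genes, of which 59.8% differed). They come from 13 tested EMT factors, 6 core EMT genes and 25 tested targets, with ZEB1 and ZEB2 both factors and targets. Their share is near that of all genes. The values are the log2 difference in HEY minus that in SKOV3. Among the EMT factors the response was lower in HEY for ZEB1 (-0.44), ZEB2 (-1.81), SNAI2 (-1.46), TWIST1 (-1.89), TCF4 (-0.63) and KLF4 (-1.98). Among the core EMT genes it was lower in HEY for the epithelial EPCAM (-1.84) and for CDH2 (-0.82), and higher for VIM (1.51). Published targets with a lower response in HEY were SMAD4 (-3.50), PRKCE (-2.57), SQLE (-1.81), HMGB3 (-1.69), VEGFA (-1.47), CCNJ (-1.39), BCL2 (-1.07), YES1 (-1.04), LAMC1 (-0.98), PHLPP2 (-0.97) and DDX5 (-0.67). Published targets with a higher response in HEY were ITGA5 (2.08), INPPL1 (1.89), E2F1 (1.41), SRC (0.88), ERBB3 (0.69) and ERBB2 (0.68). The 5' GAPDH set differed by 3.92 between the compared groups in HEY and by 0.01 in SKOV3, and its part in these differences was not tested.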

How the results depend on the processing

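The 10259 called genes of the comparison became 8185 to 10869 under the other settings without a minimum fold, the lowest with 12739 genes tested and the highest with 19775. With a 2-fold minimum 5186 genes were called, 2531 higher and 2655 lower. Leaving out each array in turn gave 9473 to 9967 called genes. With the replicate number as a block, in a fit of the transfected HEY arrays, 10186 genes were called, 5113 higher and 5073 lower. The labels do not say whether the numbers pair the arrays, and the block moved no count by over 1.5 times. Of the called genes 86.4% were still called in the same direction with probe sets averaged per gene. There 678 had a difference of the opposite sign, whether called or not. Elsewhere 90.6% to 99.8% of those tested were still called. Without probe sets that may cross-hybridise 453 of 8316 had the opposite sign, whether called or not, and under any other setting at most 11 did. Their removal, by identifier, turned ENO1 (-0.24), TGFB1 (-0.68), TARBP2 (-0.042) and SNRPD1 (-1.06), and the stricter filter turned PDGFRA (-0.087). Averaging turned VIM (-0.65), BCL2 (0.11), LAMC1 (0.25) and KLF6 (0.085). Outside averaging, another probe set then stood for the gene. Over the 149 named genes 2425 values kept direction and side of the threshold, 31 lost the call and 14 gained it. Changes that start or end near the background level of 4.89 are limited in size by it.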
